A study of Oryza sativa with 2 samples.

Results

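The genes described are Dicer-like (DCL) enzymes and RNA-dependent RNA polymerases (RDR) of rice, chosen as 9 loci by their rice locus identifiers: 6 DCL genes and 3 RDR genes. Values were used for 38511 loci, and these include 5 of the 9: DCL2b (LOC_Os09g14610), DCL4 (LOC_Os04g43050), RDR1 (LOC_Os02g50330), RDR2 (LOC_Os04g39160) and RDR6 (LOC_Os01g34350). The other 4, DCL1 (LOC_Os03g02970), DCL2a (LOC_Os03g38740), DCL3a (LOC_Os01g68120) and DCL3b (LOC_Os10g34430), were not analysed here. All 3 of the chosen RDR genes and 2 of the 6 chosen DCL genes are therefore described. Other rice RDR genes, such as RDR4, were not among the chosen loci. No sum or share given below covers the whole DCL family or the whole RDR family.

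The study measured polyadenylated RNA in 2 libraries, numbered 1 and 2, of wild-type seedlings of the japonica cultivar Nipponbare, taken as whole plants at 3 weeks of age. The plants were raised in Yoshida nutrient solution under short days, with the light on for 10 h at 800 μmol m-2 s-1 and off for 14 h. The series is the transcript side of work on adenine methylation of rice DNA. Both libraries form 1 group, with no other genotype or treatment, so the data give levels and their spread but no contrast between conditions. Separate plants for each library are stated nowhere in the sources used here, and the spread between them may be technical. In whole-seedling RNA, fewer cells that express a gene and less RNA per cell cannot be told apart.

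Dicer enzymes cut double-stranded RNA into the short RNAs that guide Argonaute proteins to matching transcripts or chromatin. RNA-dependent RNA polymerases copy single-stranded RNA into the long double strands on which most Dicers other than DCL1 act. Plants use separate pairs of these enzymes for separate tasks: RDR6 with DCL4 for trans-acting small interfering RNAs and antiviral silencing, and RDR2 with DCL3 for the small interfering RNAs that direct DNA methylation to transposons.

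All 5 measured genes were expressed in the seedlings, and the 2 DCL genes stood above the 3 RDR genes in both libraries. The threshold for expression was a mean level of 1 FPKM (fragments per kilobase of transcript per 1000000 fragments, a unit per transcript length that allows levels of different genes to be set side by side). Of all listed loci, 49.8% reached it. DCL2b was the only one of the 5 at a mean of at least 10 FPKM, a level that 24.8% of listed loci reached. The order was DCL2b, DCL4, RDR2, RDR1 and RDR6, and it was the same in libraries 1 and 2. With 2 libraries of 1 group no test of these levels was made, and neighbours in the order were compared by whether their library values overlapped, beside their SDs and the ratios within each library.

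DCL2b, a Dicer of the class that in Arabidopsis cuts viral and other long double-stranded RNA, stood at 31.8 FPKM in the first library and 32.1 FPKM in the second. Its mean level was 32.0 ± 0.22 FPKM (SD, n = 2), and 80.9% of the 19187 expressed loci lay at or below it. The libraries hardly differed, with a ratio of library 2 over library 1 of 1.01. DCL2b and DCL2a are known as near-identical copies, and how the authors' counting divided reads that match both is not given in the sources used here. The level of DCL2b alone is uncertain for that reason.

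DCL4, called SHOOT ORGANIZATION1 (SHO1) in rice, makes the trans-acting small interfering RNAs that rice needs to form a normal shoot. It reached 7.23 FPKM in the first library and 8.78 FPKM in the second, for a mean of 8.00 ± 1.09 FPKM (SD, n = 2). Both values lay far below those of DCL2b, which was 4.40 times higher in library 1 and 3.66 times higher in library 2. DCL4 lay somewhat under the median expressed locus, which stood at 9.91 FPKM, with 43.6% of expressed loci at or below it.

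RDR2 is known from Arabidopsis and maize as the polymerase that completes the precursors of small interfering RNAs for DNA methylation. Its level was 2.77 FPKM in library 1 and 3.29 FPKM in library 2, with a mean of 3.03 ± 0.36 FPKM (SD, n = 2). This was the highest of the 3 polymerases, yet only 19.6% of expressed loci lay at or below it.

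RDR1, which in Arabidopsis and tobacco is induced by salicylic acid and acts against viruses, stood at 2.65 FPKM in the first library and 2.39 FPKM in the second. Its mean was 2.52 ± 0.19 FPKM (SD, n = 2), with 15.9% of expressed loci at or below it. RDR1 was the only one of the 5 genes with its higher value in library 1.

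RDR6, called SHOOTLESS2 (SHL2) in rice, makes the double-stranded precursors that DCL4 cuts and is needed for the shoot meristem of the embryo. It had the lowest levels of the 5, 2.06 FPKM in the first library and 2.14 FPKM in the second, for a mean of 2.1 ± 0.058 FPKM (SD, n = 2). Of the expressed loci, 12.4% lay at or below it.

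**Figure D1:**
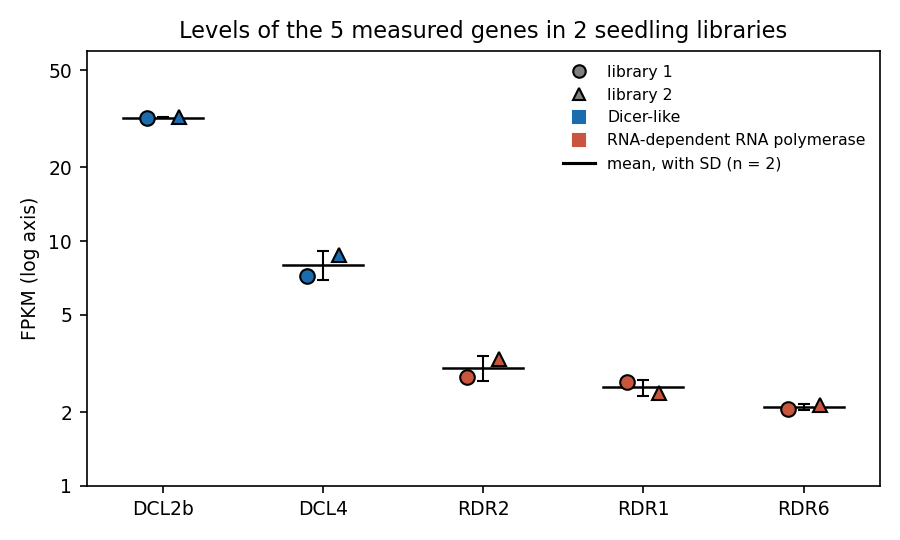
FPKM on a log axis for the 5 measured genes, with circles for library 1, triangles for library 2, a bar at the mean and whiskers of 1 SD (n = 2). DCL2b near 32.0 FPKM and DCL4 at 8.00 FPKM stand above the 3 polymerases, whose means run from 2.1 to 3.03 FPKM.

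The steps between the genes were unequal. In all 4 neighbouring pairs of the order, every library value of the higher gene exceeded every value of the lower one. The gap between the lower DCL2b value and the higher DCL4 value was 23.0 FPKM, and the gap from DCL4 down to RDR2 was 3.94 FPKM. Among the polymerases the gaps narrowed to 0.12 FPKM between RDR2 and RDR1 and 0.25 FPKM between RDR1 and RDR6. The means of RDR2 and RDR1 differed by 0.51 FPKM, against an SD of 0.36 FPKM for RDR2, so the libraries separate them only narrowly. RDR1 and RDR6 differed by 0.43 FPKM, against an SD of 0.19 FPKM for RDR1, and are also only narrowly separated.

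Ratios within a library do not depend on how the libraries were scaled. RDR2 exceeded RDR1 by a factor of 1.04 in library 1 and 1.38 in library 2. RDR1 exceeded RDR6 by 1.29 and 1.12. The 3 polymerases thus lay within a factor of 1.35 of each other in library 1 and 1.54 in library 2. DCL2b, by contrast, exceeded each polymerase by a factor of 9.77 or more in both libraries.

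The enzymes known to work as a pair, DCL4 and RDR6, differed in level by a factor of 3.52 in library 1 and 4.11 in library 2, with DCL4 the higher. DCL4 exceeded RDR2 by factors of 2.61 and 2.67. These are ratios of transcript levels, and protein was not measured.

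DCL2b supplied most of the summed level of the 2 measured DCL genes, 81.5% in library 1 and 78.5% in library 2 (80.0% ± 2.1, SD, n = 2). The polymerase sum was divided more evenly, with 39.6% ± 3.6 from RDR2, 33.0% ± 3.5 from RDR1 and 27.4% ± 0.084 from RDR6 (SD, n = 2). The sum of the 2 DCL genes was 39.0 FPKM in the first library and 40.9 FPKM in the second, and the 3 polymerases to 7.48 and 7.81 FPKM. The ratio of the DCL sum to the polymerase sum was 5.22 in library 1 and 5.23 in library 2.

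Against all expressed loci, 4 of the 5 genes lay below the median of 9.91 FPKM. The 3 polymerases also lay below the lower quartile of 3.91 FPKM, and DCL2b lay above the upper quartile of 24.3 FPKM. The number of listed loci with a higher mean was 3659 for DCL2b, 10823 for DCL4, 15434 for RDR2, 16144 for RDR1 and 16806 for RDR6.

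**Figure D2:**
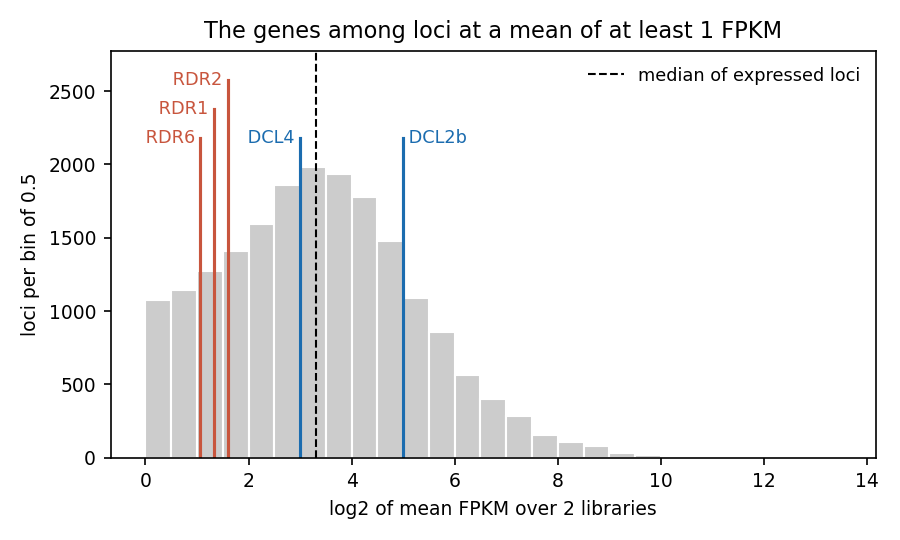
Number of expressed loci per bin of 0.5 in log2 mean FPKM (grey bars), with coloured lines at the means of the 5 genes (blue for DCL, red for RDR) and a dashed line at the median of 9.91 FPKM. The 3 polymerases sit in the lower flank of the distribution, DCL4 just under the median and DCL2b in the upper flank.

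None of the 5 genes reached a 1.5-fold difference between the libraries in FPKM + 1. Only 16.5% of expressed loci reached that size, so none among 5 does not set these genes apart. The median absolute log2 ratio of expressed loci was 0.23. The largest difference was that of DCL4, at 0.25 on the log2(FPKM + 1) scale, followed by RDR2 at 0.18. RDR1 stood at -0.11, RDR6 at 0.04 and DCL2b at 0.01 on that scale, which understates ratios of low values. On FPKM as deposited, library 2 exceeded library 1 by a factor of 1.21 for DCL4 and 1.19 for RDR2. Values were higher in library 2 for 4 of the 5 genes and for 52.9% of expressed loci. The median log2 ratio was 0.04 over the 5 genes and 0.02 over expressed loci.

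Each gene was also set beside other loci within 0.32 of its mean level on the log2 scale, which are of like abundance. For DCL4 this meant 2471 loci, of which 58.5% had a smaller absolute log2 ratio than DCL4, near the middle of these loci. The corresponding share was 38.9% of 1763 loci for RDR2 and 21.2% of 1654 loci for RDR1. It was 8.86% of 1558 loci for RDR6 and 3.39% of 1651 loci for DCL2b, whose libraries lay closer together than those of most loci at their level. The median coefficient of variation of the loci near RDR6 was 20.5%, against 2.75% for RDR6 itself. With 2 libraries an SD is itself poorly known, and the small SDs of RDR6 and DCL2b may understate their error. The means of RDR2 and RDR1 differed by 16.8% of the RDR2 mean, about the size of the median coefficient of variation of the loci near RDR2, also 16.8%. Those of RDR1 and RDR6 differed by 16.9% of the RDR1 mean. This is below the median coefficient of variation of the loci near RDR1, 18.5%, and near RDR6, 20.5%.

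**Figure D3:**
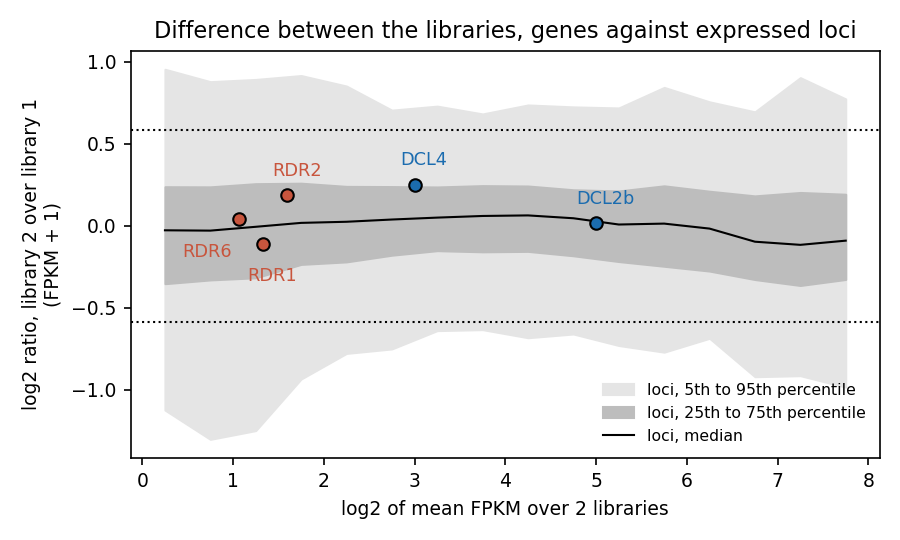
Log2 ratio of library 2 over library 1 in FPKM + 1 against log2 mean FPKM, with the 5 genes as points (blue for DCL, red for RDR), grey bands for the 25th to 75th and 5th to 95th percentiles of expressed loci in bins of 0.5, and dotted lines at 1.5-fold. The 5 genes lie between -0.11 and 0.25, inside the dotted lines.

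The identifiers of rice loci hold a chromosome number and a number that rises along the chromosome, and this order was used to look at the loci beside each gene without a genome. DCL2b lies on chromosome 9, RDR1 on chromosome 2, RDR6 on chromosome 1, and RDR2 and DCL4 both on chromosome 4 with 308 listed loci between them. All 10 nearest listed loci, 1 on either side of each gene, were expressed, with means from 3.69 to 98.7 FPKM. Within 5 positions on either side the share expressed was 56%, near the 49.8% of all listed loci. Of the 10 nearest loci, 7 had a higher mean than the gene beside them. For LOC_Os04g43060 beside DCL4 this held in library 1 only. Among all expressed loci, 80.9% lay at or below DCL2b, but only 12.4% to 43.6% at or below each of the other 4 genes. Most expressed loci are thus higher than those 4, and the count does not set the neighbours apart. DCL2b was the only one of the 5 above both of its neighbours, the higher of which, LOC_Os09g14600, stood at 18.1 FPKM in the first library and 22.6 FPKM in the second. RDR6, the lowest gene, stood beside LOC_Os01g34390 with 19.8 and 14.1 FPKM, a mean 8.09 times that of RDR6.

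RDR2 had the most unlike neighbour. LOC_Os04g39150, listed directly before it, had 21.1 FPKM in the first library against 176 FPKM in the second, a factor of 8.37, while RDR2 differed between the libraries by a factor of 1.19. The locus on its other side, LOC_Os04g39170, had 8.44 and 9.39 FPKM. The large difference between the libraries at LOC_Os04g39150 was therefore not seen at the loci that follow it directly in this order. Whether any reads of LOC_Os04g39150 were counted to RDR2 was not tested.

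**Figure D4:**
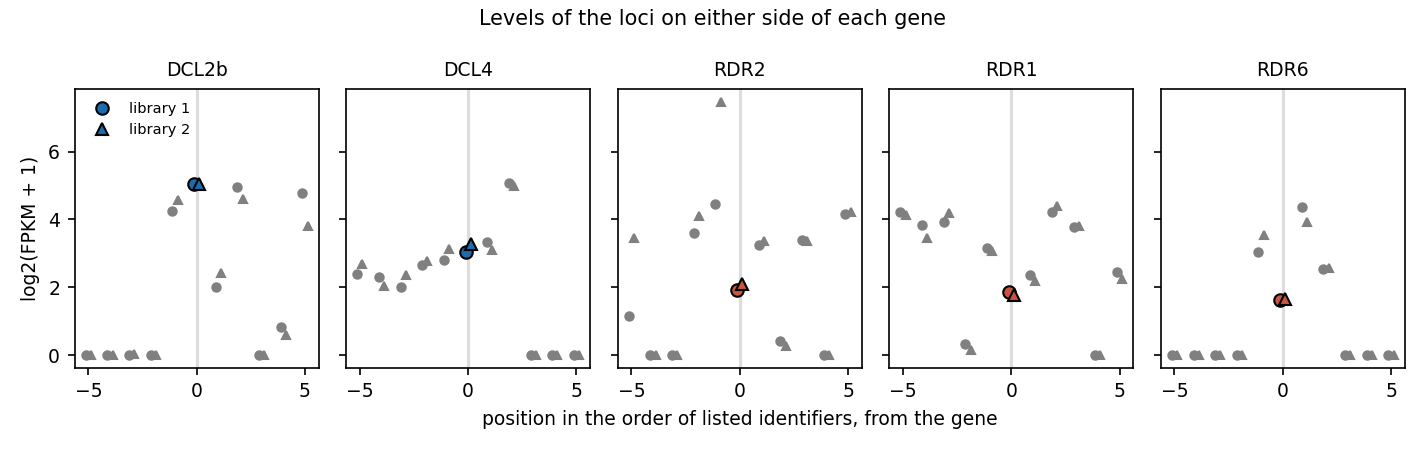
Log2(FPKM + 1) of each of the 5 genes (coloured, at position 0) and of the 5 listed loci on either side in the order of identifiers (grey), with circles for library 1 and triangles for library 2. DCL2b stands above both adjacent loci, and beside RDR2 the preceding locus stands at 21.1 FPKM in library 1 and 176 FPKM in library 2, against 2.77 and 3.29 FPKM for RDR2.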

How the data were processed

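Polyadenylated RNA of 2 libraries in 1 group was analysed. The authors deposited 1 FPKM value for each locus in each library, per the file headers, and made it with Cufflinks, per the submitters' processing notes. The sources used here name no version, aligner, genome build, annotation or use of strand. Whether overlapping or antisense genes share reads is therefore not known. FPKM values carry no read counts, so no count model was applied. Depth is unknown beyond the ratio between the libraries: the commonest ratio over 940 loci with low values gave library 2 a depth 1.08 times that of library 1, if fragment lengths were equal. Library values summed to 670155 and 651935 FPKM.

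Members were found by identifier. The members and lists were chosen with earlier results of these data known. All 5 measured members are named, and neighbouring loci are named by identifier where their mean was over 10 times the member's, or as the higher neighbour of the highest and lowest member. All other neighbouring loci were named after their values were seen. Gene names came with the chosen identifiers. The RefSeq gene table (assembly ASM3414082v1) holds the names DCL2a, DCL4 and RDR2, on the chromosomes that the identifiers give, but shares 0 identifiers with the files. The list of 17 names of other silencing genes and the 9 names of tissue markers had 0 members for that reason and were not used, so the whole-plant label was not checked. No sequences were used.

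Means, SDs, ratios on log2(FPKM + 1) and percentiles were computed with Python 3.11.15, pandas 2.3.3, numpy 2.4.6 and scipy 1.17.1. The SD and median of log2 ratios without a pseudocount were recovered from simulated libraries of constant spread. The other measures of spread were not tested in that way. Alternatives were other pseudocounts, thresholds, scalings and backgrounds, and leaving out each library.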

Additional observations from a re-analysis of the deposited data

How the results depend on the processing

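The levels depend on the scale used. When both libraries were rescaled to a common total of 1000000, the median level of the 5 genes moved from 3.03 to 4.59, the DCL sum from 40.0 to 60.5 and the polymerase sum from 7.65 to 11.6. The order of the genes and the 4 separated pairs stayed, although the gap between RDR2 and RDR1 then lay between 4.14 and 3.96. The median percentile of the 5 genes was 19.6 among expressed loci, 36.1 among loci above 0 in both libraries and 59.9 among all listed loci. With the values of library 1 alone it was 18.0, and with those of library 2 alone 21.7. For these 2 figures the expressed loci were still those chosen by the mean of both libraries. The number of genes called expressed was 5 at 0.5, 1 and 2 FPKM and 1 at 10 FPKM. Of all listed loci, 49.8% reached 1 FPKM and 24.8% reached 10 FPKM, and the shares at 0.5 and 2 FPKM were not computed. No gene passed 1.5-fold between the libraries under any pseudocount or scaling tried. Dividing library 2 by the median ratio of 1.02 turned the sign of the DCL2b ratio, which was near 0. Leaving out library 1 or library 2 kept 5 genes expressed. No paired analysis was possible because the 2 libraries form 1 group. Unknown depth and n = 2 limit the precision of every level.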

Other observations

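Among the 50 listed loci within 5 positions of the measured genes, a window chosen after the data were seen, 28 were expressed and 17 were listed at 0 in both libraries. The share expressed, 56%, was near the 49.8% of all listed loci. A 2-fold difference between the libraries in FPKM + 1 was found at 2 of the 28, against 6.75% of all expressed loci. Both lay before RDR2 and were higher in library 2. The first was LOC_Os04g39150 (21.1 and 176 FPKM), and the second was LOC_Os04g39110 (1.24 and 9.89 FPKM). On FPKM as deposited, 3 of the 28 were past 2-fold, with LOC_Os09g14670 near DCL2b the third and higher in library 1 (26.6 and 13.1 FPKM). For FPKM as deposited, the share of all expressed loci past 2-fold was not computed, so this count cannot be set against it. Of the 9551 loci at a mean of at least 10 FPKM, 24 had a log2 ratio of library 2 over library 1 at or above that of LOC_Os04g39150. Differences as large in the other direction were not counted. Of the 3 loci listed between LOC_Os04g39110 and LOC_Os04g39150, LOC_Os04g39140 had 11.2 and 16.0 FPKM, and the other two, LOC_Os04g39120 and LOC_Os04g39130, were listed at 0 in both libraries and so could show no difference.

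Around DCL4, the means of the 5 preceding loci lay between 3.52 and 6.86 FPKM, all below the DCL4 mean of 8.00 FPKM. The library values of the nearest, LOC_Os04g43040 (6.05 and 7.68 FPKM), overlapped those of DCL4 (7.23 and 8.78 FPKM). Of the 5 loci after DCL4, the nearest, LOC_Os04g43060, had a mean of 8.32 FPKM. Its library values (9.02 and 7.62 FPKM) overlapped those of DCL4, and it was the higher in library 1 only. The next had a mean of 31.5 FPKM and lay above DCL4 in both libraries. The rest of the 5 loci after DCL4 were listed at 0 in both libraries. Within 5 positions of RDR6, 7 of the 10 loci were listed at 0 in both libraries, against 17 of the 50 around all 5 genes. RDR6 was singled out here after the values were seen, as the gene with the most such loci. The share of all listed loci at 0 was not computed. The only loci with signal there were LOC_Os01g34330, LOC_Os01g34390 and LOC_Os01g34420.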
